A study of Mus musculus with 18 samples.

Results

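The genes of glycolysis and of glucose and lactate transport were followed in mouse natural killer (NK) cells kept at low oxygen. The set held 41 genes, listed by symbol: the glucose transporters, every step from hexokinase to lactate dehydrogenase, the enzymes that set fructose 2,6-bisphosphate, the glycerol phosphate branch and the lactate transporters. All 41 matched an Ensembl identifier among the 56953 in the count files, and 40 of them had a count in at least 1 library. Of these, 37 passed the filter on low counts and were tested. Pklr had no count in any library, and Fbp2, Gpd1 and Pgam2 stayed under the filter.

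NK cells from mouse spleen were cultured for 7 days at 1% O2 in RPMI-1640 medium with recombinant human IL-2 at 1700 U/ml, and polyadenylated RNA was sequenced with a strand-specific kit. There were 6 groups of 3 libraries, labelled as biological replicates. The 3 flox groups came from mice with the genotypes Hif1a fl/fl, Ahr fl/fl, or Hif1a fl/fl with Ahr fl/fl, without Cre. The matching KO groups carried the same floxed alleles together with Ncr1 iCre, a Cre recombinase expressed from the Ncr1 gene, which encodes the NK receptor NKp46. The 3 lines are called the Hif1a, Ahr and Hif1a Ahr lines, and each KO group was compared with the flox group of its own line. No age was given, and whether animals were pooled was not stated. Cre was present on the KO side of every line and no group had Cre without a floxed allele, so an effect of Cre itself cannot be told apart from that of a deletion.

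Glycolysis splits glucose into pyruvate with a small gain of ATP and needs no oxygen, and lactate dehydrogenase then turns pyruvate into lactate to recover NAD+. Cells import glucose through SLC2A (GLUT) carriers and export lactate through SLC16A (MCT) carriers held at the membrane by basigin. HIF-1α, the product of Hif1a, is a transcription factor that is stabilised at low oxygen and is known for driving glycolytic genes through motifs with the core ACGTG or GCGTG. The aryl hydrocarbon receptor, encoded by Ahr, is a ligand-activated factor that shares the partner ARNT with HIF-1α. Most steps have several paralogs that differ in tissue and in regulation, and cytokine-activated NK cells raise glycolysis.

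The libraries held 54420649 to 55732940 estimated counts. Whole-gene counts check neither deletion, since a transcript without the floxed exon is still counted. Hif1a itself rose from 60.3 ± 4.29 to 179.9 ± 32.0 CPM (counts per 1000000; mean ± SD, n = 3) in the Hif1a line and from 59.8 ± 2.26 to 192 ± 25.5 CPM in the Hif1a Ahr line. Ahr was not called in any line, with log2 changes of 0.50 in the Hif1a line, 0.27 in the Ahr line and -0.26 in the Hif1a Ahr line. DESeq2 called it higher in Hif1a KO (adjusted p = 0.0273), and edgeR with the replicate number as a block gave a rise to both Hif1a KO (0.50, adjusted p = 2.38e-04) and the Ahr KO libraries (0.27, adjusted p = 0.0339) and a fall to Hif1a Ahr KO (-0.27, adjusted p = 0.0163). Ncr1, the gene that carries the Cre, rose in all 3 KO groups (0.92, 0.97 and 1.06 in the same order). The groups are therefore named by their labels. Summed CPM of 9 NK markers was 18720 to 25930 in the flox libraries and 14130 to 16030 in Hif1a KO. There 4 markers were called lower and 3 higher (17.8% and 17.6% of all genes). In the Hif1a Ahr line the NK sums of KO (19250 to 20430 CPM) and flox libraries overlapped, and in the Ahr line they were 25690 to 30430 against 19030 to 25930 CPM. NK markers called higher numbered 3 in Hif1a Ahr KO and 2 in Ahr KO (14.8% and 2.13% of all genes). In both, 0 were called lower (16.5% and 4.78%). T cell markers (8 genes) summed to 176 to 244 CPM in flox libraries, and the sum was lower in every KO group: 93.0 to 121 CPM in Hif1a KO, 112 to 155 CPM in Hif1a Ahr KO and 142 to 157 CPM in Ahr KO. Of the 8, 4 were called lower in Hif1a KO, 2 in Hif1a Ahr KO and 2 in Ahr KO (17.8%, 16.5% and 4.78% of all genes). Their median log2 changes were -0.38, -0.003 and 0.37 in the same order, so the sums do not stand for every marker. Summed neutrophil markers (5 genes) were 0.0853 to 0.138 CPM in Hif1a KO, 0.157 to 0.359 CPM in Hif1a Ahr KO and 0.432 to 4.99 CPM elsewhere, with Elane at 0 in both Hif1a-deleted KO groups. Macrophage and monocyte markers (5 genes) summed to at most 55.7 CPM and dendritic cell markers (5 genes) to at most 389.7 CPM, both highest in Hif1a KO. Most single markers did not follow these sums: of 4 macrophage and monocyte markers tested there, 3 were lower and 1 higher (median log2 change -2.57). Of 3 dendritic cell markers tested, 1 was lower and 1 higher (median -1.05). Among all genes in Hif1a KO, 17.8% were called lower and 17.6% higher. B cell, erythroid and platelet markers stayed at or under 3.57 CPM. Whether these shifts play a part in the values of the glycolysis genes was not tested.

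The 41 genes made up a large part of the NK transcriptome in the flox groups and a much smaller part where Hif1a was floxed and Cre present. In the Hif1a line their share of all counts was 3.49% ± 0.129 (SD, n = 3) in flox and 0.879% ± 0.0377 in KO. The Hif1a Ahr line went from 3.46% ± 0.032 to 0.993% ± 0.0702, while the Ahr line held 3.57% ± 0.0682 in flox and 3.44% ± 0.0741 in KO. The 6 KO libraries of the Hif1a and Hif1a Ahr lines lay far below the other 12, with no overlap. In bulk RNA, fewer cells of a type and less RNA per cell cannot be told apart.

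**Figure D1:**
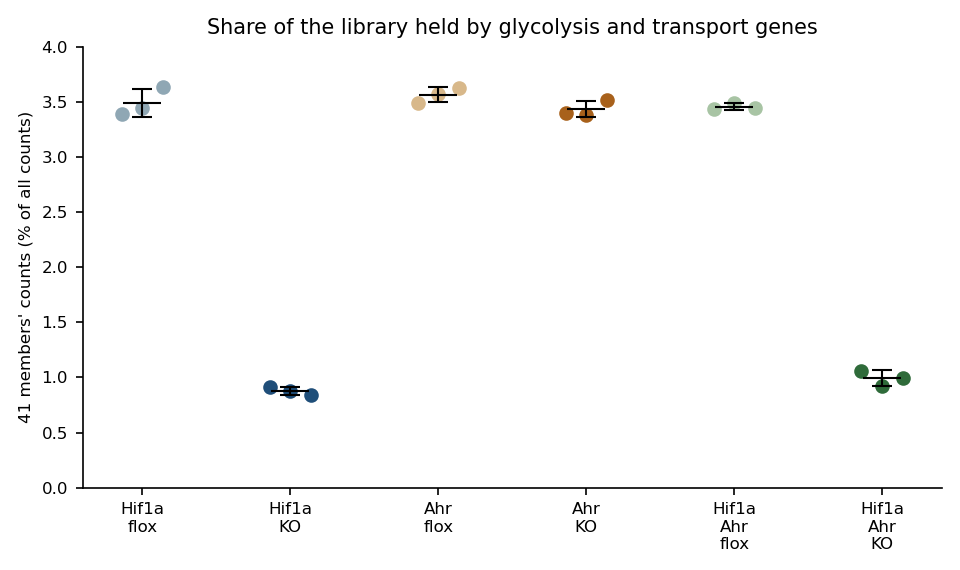
Share of each library's counts held by the 41 genes, in percent, for the 6 groups; points are libraries, the long bar is the mean and the short bars are 1 SD on either side (n = 3). The Hif1a KO and Hif1a Ahr KO libraries sit near 0.9% and 1%, the other 12 between 3.4% and 3.7%.

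Per kilobase of the longest coding transcript in the annotation, the 9 flox libraries ranked Gapdh first, at 3825 ± 268 CPM per kb (SD, n = 9). Gapdh, which oxidises glyceraldehyde 3-phosphate, was followed by Eno1 at 2612 ± 125, Aldoa at 2256 ± 132 and Pgk1 at 2000 ± 165 CPM per kb. Pkm (1801 ± 60.6) and Ldha (1791 ± 111) came next and did not differ beyond their spread, nor did Gpi1 (943 ± 68.0) and Tpi1 (926 ± 48.2). Pgam1 stood at 711 ± 38.6 and Bsg at 332 ± 10.4 CPM per kb. The carriers and the enzymes at the committed steps were lower: Pfkp at 181 ± 21.0, Slc2a1 at 139 ± 13.4, Slc2a3 at 131 ± 16.0, Slc16a3 at 92.8 ± 6.41, Hk1 at 78.3 ± 3.93 and Hk2 at 39.6 ± 2.41 CPM per kb. The order depends on the transcript length used: with the median length, Tpi1 was at 1236, above Gpi1 at 943, and Slc16a3 at 169, above Slc2a1 and Slc2a3, whose values were the same. In all, 33 genes averaged at least 1 CPM across the 18 libraries and 8 at least 1000 CPM (Gapdh, Eno1, Pkm, Pgk1, Aldoa, Ldha, Gpi1 and Tpi1). Those 8 held 83.9% ± 0.155 of the set's counts in Hif1a flox and 76.5% ± 1.06 in Hif1a KO, so the less abundant genes fell less as a whole. The corresponding shares were 83.8% ± 0.466 and 77.4% ± 0.878 in the Hif1a Ahr line and 83.3% ± 0.636 and 83.0% ± 0.592 in the Ahr line.

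Where Hif1a was floxed and Cre present, most of the pathway fell together. In Hif1a KO, 21 of the 37 genes tested were lower and 5 were higher than in Hif1a flox by edgeR's quasi-likelihood test (adjusted p under 0.05 over all 16743 genes tested). Among all genes 17.8% were called lower and 17.6% higher, or 35.4% either way. A fall of at least 2-fold was called for 18 of the 37 against 6.53% of all genes, and the median log2 change of the 37 was -1.04 against -0.01 over all genes. In 25 of the genes every KO library lay below every flox library (25.1% of all genes), and in 6 every KO library lay above (24.8%). Scaling by library totals alone moved the genome-wide split to 2156 lower and 4117 higher, from 2972 and 2948, shifted the median of all genes to 0.09, and again called 21 genes of the set lower. The count of 5 higher genes was 2 when flox replicate 3 was left out and 3 when KO replicate 3 was.

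Most falls were in the enzymes of the main path and in transport. Of 19 tested enzymes from hexokinase to lactate dehydrogenase, 14 fell in Hif1a KO and the other 5 (Hk3, Pfkm, Eno2, Eno3 and Ldhb) were not called. Among the 7 genes of sugar entry, lactate export and Bsg, 5 fell and 2 rose (Slc2a6 and Galm). Among the 6 that set fructose 2,6-bisphosphate or hydrolyse fructose 1,6-bisphosphate, only Pfkfb3 fell and only Pfkfb1 rose. Of the 5 on side branches, Gpd2 fell and Gpd1l and Bpgm rose, while Adpgk and Minpp1 were not called. Log2 changes are given ± SE from here on. Aldoc (-4.06 ± 0.21) and Slc16a3 (-3.99 ± 0.18) had the deepest changes and did not differ beyond their SE. Pfkl at -3.10 ± 0.11 and Pgk1 at -2.58 ± 0.11 followed. In the Hif1a Ahr line Slc16a3 (-3.41 ± 0.18) was deeper than Aldoc (-3.09 ± 0.20).

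**Figure D2:**
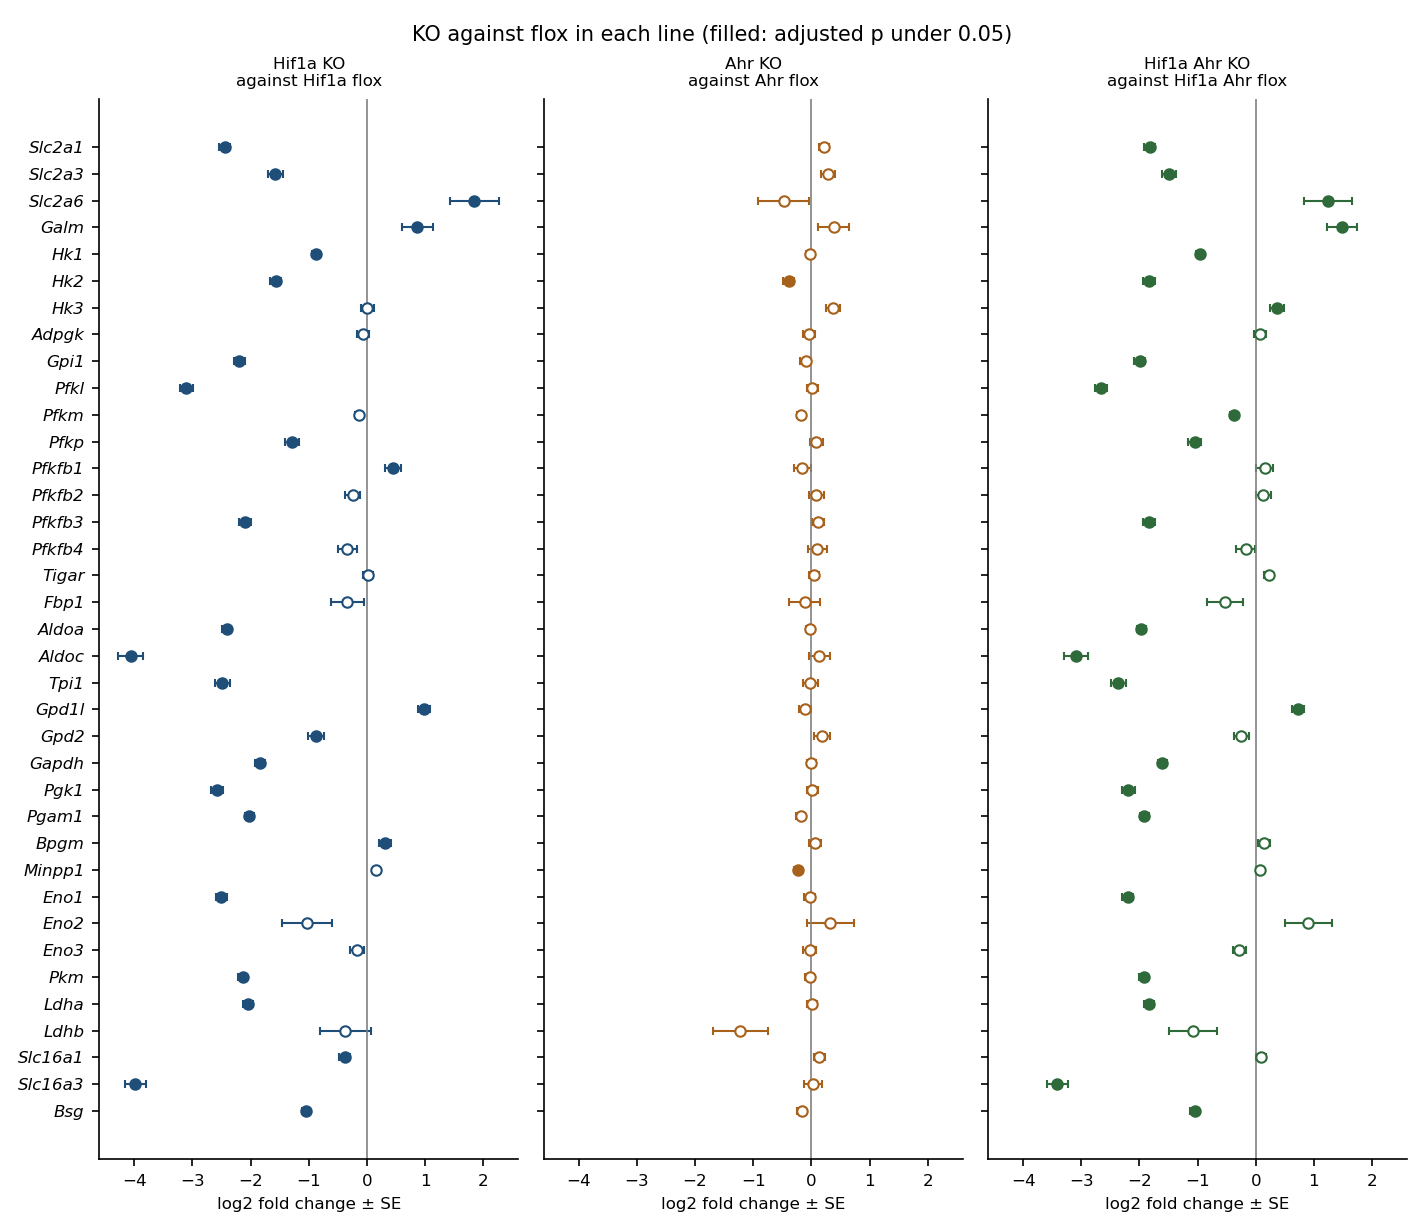
Log2 change of each tested gene, KO over flox, in the 3 lines; points are edgeR estimates, bars are 1 SE on either side, and filled points passed an adjusted p of 0.05. Most genes lie below 0 in the Hif1a and Hif1a Ahr lines, down to -4.06 for Aldoc in the Hif1a line, and near 0 in the Ahr line.

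RefSeq promoters (GRCm38.p6) put sequence beside these changes. The 250 bases before the start were searched on both strands for ACGTG and GCGTG, with overlapping matches merged. The table held 37 of the 41 genes (Slc2a3, Galm, Gpd1 and Bsg had no entry). Of the 37, 29 (78.4%) had a match in at least 1 start, against 41.5% of the 27025 genes in the table. The latter were not matched for base composition or for the number of starts. The 37 genes had 56 starts. All genes had 32851, of which 38.6% had a match. By call in Hif1a KO, 17 of 19 lower genes (89.5%), 3 of 4 higher genes and 8 of 11 genes that were not called had a match. The motif was thus present in genes of every class, and a match is a description of letters only. The promoters below belong to the lactate carrier pair whose balance turned over, to Pgk1, and to the enolase pair of which 1 member fell and the other was not called. Each runs 5′ to 3′ on the gene's strand, which is the plus strand for all 5, and capitals mark the motif, which reads CACGT or CACGC where it lies on the other strand. Slc16a3 lies at chr11:120948817-120949066, Slc16a1 at chr3:104638414-104638663, Pgk1 at chrX:106186850-106187099, Eno1 at chr4:150236947-150237196 and Eno3 at chr11:70656926-70657175.
Slc16a3: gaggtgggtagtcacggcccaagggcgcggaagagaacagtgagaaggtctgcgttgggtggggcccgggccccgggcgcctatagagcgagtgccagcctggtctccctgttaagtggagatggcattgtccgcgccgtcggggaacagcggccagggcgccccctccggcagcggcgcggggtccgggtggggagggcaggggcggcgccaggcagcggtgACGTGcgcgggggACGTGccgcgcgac
Slc16a1: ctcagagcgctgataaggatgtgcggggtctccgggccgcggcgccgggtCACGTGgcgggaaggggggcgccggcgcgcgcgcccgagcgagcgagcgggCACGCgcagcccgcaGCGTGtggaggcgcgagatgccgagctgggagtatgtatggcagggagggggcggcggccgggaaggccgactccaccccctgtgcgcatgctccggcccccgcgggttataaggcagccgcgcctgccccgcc
Pgk1: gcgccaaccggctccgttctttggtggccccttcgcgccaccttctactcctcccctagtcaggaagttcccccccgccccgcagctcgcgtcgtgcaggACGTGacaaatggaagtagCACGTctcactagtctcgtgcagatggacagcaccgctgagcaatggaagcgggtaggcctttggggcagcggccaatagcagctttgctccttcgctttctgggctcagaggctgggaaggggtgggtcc
Eno1: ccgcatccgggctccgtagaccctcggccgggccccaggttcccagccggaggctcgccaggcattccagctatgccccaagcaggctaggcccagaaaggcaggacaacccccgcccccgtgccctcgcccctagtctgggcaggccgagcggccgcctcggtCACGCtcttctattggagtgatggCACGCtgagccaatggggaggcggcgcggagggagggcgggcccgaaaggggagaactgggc
Eno3: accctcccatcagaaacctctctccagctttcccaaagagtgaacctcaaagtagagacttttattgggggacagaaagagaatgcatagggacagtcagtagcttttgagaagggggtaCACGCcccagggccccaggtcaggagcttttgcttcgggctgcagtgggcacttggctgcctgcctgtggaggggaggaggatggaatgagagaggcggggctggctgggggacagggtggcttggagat
Slc16a3, Pgk1 and Eno1 had 2 matches each, Slc16a1 had 3 and Eno3 had 1.

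Glucose uptake genes moved in opposite directions. Slc2a1 (GLUT1, the widespread basal glucose carrier) was at 468, 416 and 510.4 CPM in the Hif1a flox libraries and 91.0, 78.7 and 86.3 CPM in Hif1a KO. Every KO library was far below every flox library, a fall of 5.45-fold (log2 change -2.45 ± 0.09, adjusted p = 3.56e-12). With Ahr floxed too it went from 408, 488 and 381 CPM to 119.8, 121 and 119 CPM, a fall of 3.55-fold, again without overlap. In the Ahr line it stood at 463, 496 and 452 CPM in flox and 553, 563 and 528 CPM in KO. Those KO libraries were all slightly above flox, but the difference was not called (log2 change 0.22 ± 0.09, adjusted p = 0.155). With the replicate number as a block it was called higher (0.22, adjusted p = 0.0432).

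Slc2a3 (GLUT3, a high-affinity carrier) read 514, 426 and 555 CPM in Hif1a flox and 172, 147 and 184 CPM in Hif1a KO. It fell 2.98-fold there and 2.81-fold in the Hif1a Ahr line, from 544, 537 and 407 CPM to 168, 183 and 177 CPM, with no overlap in either line. Its Ahr flox libraries held 607, 539 and 536 CPM and its Ahr KO libraries 749, 707 and 589.9 CPM. These overlapped and were not called (0.28 ± 0.12, adjusted p = 0.189), though the fit with the replicate block called them higher (0.28, adjusted p = 0.0367).

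Slc2a6 (GLUT6, a carrier of intracellular membranes) was the carrier that rose, from a low level. Its Hif1a flox libraries had 3.07, 3.95 and 2.87 CPM and its Hif1a KO libraries 11.7, 14.3 and 9.58 CPM, so all KO values were above flox (1.85 ± 0.43, adjusted p = 0.00381). It rose in the Hif1a Ahr line from 3.72, 2.78 and 8.87 CPM to 10.5, 9.58 and 16.1 CPM (1.24 ± 0.41, adjusted p = 0.0356), where the third flox library lay close to the KO libraries. Without that library the log2 change was 1.89. The call in this line was lost without flox replicate 1 (adjusted p = 0.122), flox replicate 2 (0.125) or KO replicate 3 (0.139), without the filter on low counts (0.0941), and with only the 2 groups in the fit (0.122). The Ahr line of Slc2a6 read 5.23, 1.94 and 3.24 CPM in flox and 3.37, 1.78 and 2.35 CPM in KO, overlapping between the groups. Galm, the mutarotase that interconverts the anomers of hexoses, also rose, from 0.663, 0.685 and 0.605 to 1.52, 1.07 and 0.972 CPM in the Hif1a line and from 0.772, 0.413 and 0.746 to 1.88, 1.24 and 2.29 CPM in the Hif1a Ahr line. The log2 changes were 0.87 ± 0.26 (adjusted p = 0.0144) and 1.48 ± 0.26 (adjusted p = 2.57e-04). The first was no longer called without Hif1a flox replicate 3 (adjusted p = 0.0525) or Hif1a KO replicate 1 (0.0894). Galm in the Ahr line stood at 0.622, 0.532 and 0.691 CPM in flox and 0.843, 0.793 and 0.770 CPM in KO and was not called.

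The hexokinases, which trap glucose as glucose 6-phosphate, differed between paralogs. Hk1 had 336, 331 and 360.5 CPM in Hif1a flox and 190, 189.5 and 182 CPM in Hif1a KO. This fall of 1.83-fold was among the shallower of the pathway (-0.87 ± 0.07, adjusted p = 4.52e-08). Hk2, the inducible paralog, fell 2.98-fold from 202, 224 and 221 CPM to 73.5, 78.8 and 65.1 CPM (-1.57 ± 0.10, adjusted p = 1.70e-09). Both fell again in the Hif1a Ahr line: Hk1 dropped from 345, 331 and 299.5 to 184, 150.5 and 165 CPM and Hk2 from 221, 209 and 196 to 69.3, 50.0 and 56.9 CPM, by 1.95-fold and 3.56-fold. None of these 4 comparisons had overlapping libraries. Hk2 was also the main exception in the Ahr line, with 239.6, 225 and 226 CPM in flox and 179, 163 and 186 CPM in KO. All Ahr KO libraries were below flox (-0.39 ± 0.10, adjusted p = 0.0199). The call was lost when a single Ahr library was left out: flox replicate 1 (adjusted p = 0.0953) or 3 (0.0565), or KO replicate 1 (0.0511) or 2 (0.114). Hk1 held 325, 344 and 342 CPM in flox and 329, 332 and 331 CPM in KO in that line and was not called.

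Hk3, a low-level paralog, stayed between 8 and 15 CPM in all 18 libraries. It read 11.2, 11.3 and 10.3 CPM in Hif1a flox and 11.8, 8.77 and 12.4 CPM in Hif1a KO, which overlapped (0.01 ± 0.11). It rose in the Hif1a Ahr line from 10.3, 10.0 and 11.5 to 14.8, 13.7 and 12.5 CPM (0.37 ± 0.11, adjusted p = 0.0203), a call that was lost without flox replicate 1 (adjusted p = 0.0592) or 2 (0.0726) or KO replicate 1 (0.0768) or 2 (0.0527). The Ahr KO libraries, at 11.9, 10.2 and 11.2 CPM, were all above the Ahr flox libraries, at 8.07, 8.62 and 8.98 CPM (0.37 ± 0.12, adjusted p = 0.0591). DESeq2 called that rise (adjusted p = 0.025), as did edgeR with only the 2 groups in the fit (0.0338). Adpgk, a kinase that phosphorylates glucose with ADP, was at 43.1, 54.3 and 39.6 CPM in Hif1a flox and 41.5, 43.5 and 45.9 CPM in Hif1a KO. It read 49.9, 45.6 and 55.7 CPM in flox and 52.3, 52.9 and 53.2 CPM in KO in the Hif1a Ahr line, and 50.4, 47.6 and 50.1 CPM in flox and 50.9, 42.0 and 51.6 CPM in KO in the Ahr line. Adpgk overlapped and was not called in any line.

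Gpi1, which isomerises glucose 6-phosphate to fructose 6-phosphate, was one of the 8 most abundant members. It stood at 2711, 2628 and 3019 CPM in Hif1a flox and 659, 588 and 581 CPM in Hif1a KO. All KO libraries were below flox, by 4.57-fold (-2.19 ± 0.10, adjusted p = 1.62e-11). The Hif1a Ahr line showed 2538, 2787 and 2367 CPM in flox and 739.7, 579 and 609.9 CPM in KO, a fall of 3.99-fold. Values in the Ahr line were 2687, 2812 and 2915 CPM in flox and 2542, 2701 and 2631 CPM in KO and were not called.

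Phosphofructokinase catalyses the committed step, and its 3 subunits behaved differently. Pfkp, the platelet-type subunit and the most abundant here, had 786, 723 and 882 CPM in Hif1a flox and 322, 297 and 358 CPM in Hif1a KO. It fell 2.45-fold (-1.29 ± 0.12, adjusted p = 1.66e-07). Pfkl, the liver-type subunit, fell 8.59-fold from 368, 374 and 409.8 CPM to 50.4, 43.1 and 40.5 CPM (-3.10 ± 0.11, adjusted p = 1.15e-12). Pfkm, the muscle-type subunit, was at 27.7, 28.8 and 31.4 CPM and 27.3, 26.8 and 25.4 CPM, where KO lay just below flox without being called (-0.15 ± 0.06, adjusted p = 0.0855). All 3 were called lower in the Hif1a Ahr line. Pfkp went from 708, 815 and 595 to 364, 363 and 294 CPM. Pfkl went from 342, 378 and 377 to 67.2, 47.9 and 58.6 CPM. Pfkm went from 31.1, 29.9 and 29.6 to 24.8, 22.2 and 22.7 CPM, a change of -0.38 ± 0.06 (adjusted p = 2.17e-04) that was small beside the -2.66 of Pfkl. The Ahr line gave 683, 829.8 and 731 CPM in flox and 769, 811 and 801 CPM in KO for Pfkp, 359.7, 383 and 385 CPM in flox and 366, 384 and 390.2 CPM in KO for Pfkl, and 31.1, 28.6 and 29.2 CPM in flox and 27.2, 25.4 and 26.1 CPM in KO for Pfkm, with none called.

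Fructose 2,6-bisphosphate, the activator of phosphofructokinase, is made and broken down by the PFKFB enzymes. Pfkfb3, whose product strongly favours synthesis, fell 4.30-fold from 96.8, 114 and 109 CPM in Hif1a flox to 25.0, 26.1 and 23.3 CPM in Hif1a KO (-2.11 ± 0.10, adjusted p = 6.82e-11). It fell 3.56-fold in the Hif1a Ahr line, from 104, 104 and 112 to 27.8, 25.7 and 36.4 CPM, and again no library overlapped. Ahr flox and Ahr KO held 116, 112 and 118 CPM in flox and 134, 116 and 123 CPM in KO, which were not called. The other 3 family members were far less abundant in flox, and none was called lower by the test over all 6 groups. Pfkfb2 read 8.71, 9.0 and 9.13 CPM in Hif1a flox and 7.40, 7.78 and 7.49 CPM in Hif1a KO (-0.24 ± 0.13, adjusted p = 0.162; called lower with only the 2 groups in the fit, adjusted p = 0.0441), and 9.0, 9.60 and 6.43 CPM in flox and 7.78, 10.0 and 9.62 CPM in KO in the Hif1a Ahr line. Pfkfb4, a known hypoxia-responsive paralog in other cells, read 5.13, 4.17 and 6.46 CPM in flox and 4.03, 4.13 and 4.33 CPM in KO in the Hif1a line and 4.46, 5.18 and 3.70 CPM in flox and 4.43, 4.08 and 3.29 CPM in KO in the Hif1a Ahr line. The Pfkfb4 groups overlapped in each line, although without Hif1a flox replicate 2 the gene was called lower in Hif1a KO (-0.48, adjusted p = 0.0395). Pfkfb1 rose slightly in Hif1a KO, from 3.96, 4.22 and 4.04 to 5.24, 5.48 and 5.94 CPM (0.45 ± 0.14, adjusted p = 0.0202). That call was lost without Hif1a flox replicate 1 (adjusted p = 0.0656), flox replicate 3 (0.0556) or KO replicate 3 (0.0733), and in the Hif1a Ahr line the values 3.95, 4.39 and 3.59 CPM in flox and 3.71, 5.11 and 4.42 CPM in KO overlapped. In the Ahr line Pfkfb2 read 9.38, 9.10 and 8.46 CPM in flox and 10.7, 8.61 and 9.25 CPM in KO. Pfkfb4 had 5.53, 4.58 and 4.31 CPM in flox and 5.63, 5.28 and 4.55 CPM in KO, and Pfkfb1 4.51, 3.99 and 4.0 CPM in flox and 4.03, 2.96 and 4.25 CPM in KO, and none of the 3 was called.

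Tigar, a phosphatase that lowers fructose 2,6-bisphosphate, had 18.9, 22.0 and 18.1 CPM in Hif1a flox and 19.2, 19.9 and 21.0 CPM in Hif1a KO and was not called (0.02 ± 0.08). The Hif1a Ahr KO libraries, at 23.8, 24.5 and 25.1 CPM, were all above flox, at 20.5, 19.9 and 22.6 CPM, just short of a call (0.22 ± 0.08, adjusted p = 0.0551). DESeq2 called it (adjusted p = 0.038), as did edgeR with DESeq2's size factors (0.0445), with the replicate block (0.046) or without flox replicate 3 (0.0302). Ahr flox and Ahr KO held 17.2, 18.5 and 18.8 CPM in flox and 19.9, 16.7 and 19.7 CPM in KO. Fbp1, a gluconeogenic fructose 1,6-bisphosphatase, was near 1 CPM or under it, with 0.644, 0.775 and 0.624 CPM in Hif1a flox and 0.640, 0.392 and 0.583 CPM in Hif1a KO. Fbp1 had 0.413, 0.675 and 0.401 CPM in flox and 0.323, 0.479 and 0.227 CPM in KO in the Hif1a Ahr line, and 0.847, 1.14 and 1.29 CPM in flox and 1.17, 0.967 and 0.883 CPM in KO in the Ahr line, and was not called in any line. The muscle paralog Fbp2 had 1 count in Ahr flox replicate 1 and none in any other library, and was not tested.

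Aldolase cleaves fructose 1,6-bisphosphate into a pair of trioses. Aldoa had 3538, 3374 and 3902 CPM in Hif1a flox and 709, 681 and 643 CPM in Hif1a KO. Its fall was 5.32-fold (-2.41 ± 0.08, adjusted p = 1.04e-12). Aldoc, known as the brain-type aldolase, fell 16.7-fold, from 289.7, 250.2 and 370 CPM to 22.4, 14.9 and 17.1 CPM (-4.06 ± 0.21, adjusted p = 3.21e-09). Aldoa in the Hif1a Ahr line went from 3348, 3723 and 3328 to 915, 830.4 and 908 CPM and Aldoc from 240, 292 and 197 to 34.1, 21.7 and 29.8 CPM. The KO libraries of both genes stayed far from flox there, with smaller folds of 3.92 and 8.51. The Ahr libraries overlapped for both, with 3272, 3480 and 3480 CPM in flox and 3244, 3447 and 3381 CPM in KO for Aldoa and 258, 315 and 292 CPM in flox and 317, 328 and 306 CPM in KO for Aldoc. Tpi1, which interconverts the trioses, fell 5.61-fold from 1468, 1451 and 1605 CPM to 287, 267 and 253 CPM in the Hif1a line and 5.15-fold from 1431, 1458 and 1595 to 378, 239.5 and 254 CPM in the Hif1a Ahr line. Its Ahr libraries, 1364, 1497 and 1530 CPM in flox and 1388, 1385 and 1564 CPM in KO, overlapped.

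The glycerol phosphate branch draws off a triose and can carry electrons from cytosolic NADH to mitochondria, and its members split. Gpd2, the mitochondrial dehydrogenase, fell from 167, 152 and 170.5 CPM to 87.5, 76.8 and 103 CPM in the Hif1a line (-0.87 ± 0.13, adjusted p = 8.49e-05). Gpd1l, a cytosolic GPD1-like enzyme, rose from 14.1, 17.9 and 13.7 CPM to 27.3, 31.2 and 31.5 CPM (0.98 ± 0.10, adjusted p = 7.43e-07). Gpd1l also rose in the Hif1a Ahr line, from 18.1, 14.8 and 15.2 to 26.7, 26.4 and 26.3 CPM (0.72 ± 0.10, adjusted p = 2.39e-05), with no overlap in either line. Gpd2 there had 149, 176 and 123 CPM in flox and 122, 149 and 106 CPM in KO, which overlapped and were not called (-0.25 ± 0.13, adjusted p = 0.172). It was called lower with the replicate block (-0.25, adjusted p = 0.00371), without flox replicate 3 (-0.37, 0.0448) or without KO replicate 2 (-0.39, 0.0453). In the Ahr line Gpd2 read 149, 168 and 152 CPM in flox and 176, 189 and 168 CPM in KO, not called (0.18 ± 0.13, adjusted p = 0.488) but called higher with the replicate block (0.18, adjusted p = 0.0435). Gpd1l had 16.1, 15.5 and 16.7 CPM in flox and 14.2, 14.4 and 16.1 CPM in KO there and overlapped. Gpd1, the cytosolic dehydrogenase, was under the filter, with 13, 12 and 8 counts in Hif1a Ahr KO, 4, 1 and 0 in Hif1a Ahr flox and at most 8 in any other library. It was called higher in Hif1a Ahr KO without the filter (2.6 ± 0.72, adjusted p = 0.00716) and by DESeq2 (2.69 ± 0.92, adjusted p = 0.0153), and no alternative that gave it a p-value called it in another line.

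The next steps are those that make ATP and reducing power, and Gapdh, Pgk1 and Pgam1 fell in both lines with floxed Hif1a. Gapdh went from 5311, 5043 and 6067 CPM to 1534, 1554 and 1514 CPM in the Hif1a line, a fall of 3.57-fold (-1.84 ± 0.08, adjusted p = 2.71e-11). Pgk1, which makes the first ATP of the path, went from 3796, 3352 and 3934 CPM to 665, 574 and 609 CPM, or 5.99-fold lower (-2.58 ± 0.11, adjusted p = 5.29e-12). Pgam1, the phosphoglycerate mutase, went from 1197, 1235 and 1216 to 313, 293 and 292 CPM, or 4.06-fold lower. Gapdh is often used as a reference gene, and here its KO and flox libraries did not overlap. Gapdh in the Hif1a Ahr line fell from 5256, 5362 and 5330 to 1821, 1697 and 1726 CPM, by 3.04-fold. Pgk1 fell from 3333, 3900 and 3279 to 863, 705 and 739 CPM, by 4.56-fold. Pgam1 fell from 1235, 1209 and 1385 to 355, 298 and 360.1 CPM, by 3.78-fold. The Ahr line had overlapping Gapdh libraries (4986, 6014 and 5510 CPM in flox and 5251, 5682 and 5597 CPM in KO) and overlapping Pgk1 libraries (3385, 3971 and 3897 CPM in flox and 3569, 3945 and 3872 CPM in KO). Ahr KO libraries were all below flox for Pgam1, 1133, 1132 and 1154 against 1278, 1242 and 1368 CPM, without a call (-0.18 ± 0.08, adjusted p = 0.166). The intronless copy Pgk1-rs7 had a median of 119 and at most 794 counts, so a split of reads between it and Pgk1 is uncertain but small. Pgam2, the muscle paralog, had too few counts to test.

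Bpgm makes and Minpp1 removes 2,3-bisphosphoglycerate, a side route around Pgk1. Bpgm was at 11.7, 10.9 and 9.56 CPM in Hif1a flox and 12.3, 13.8 and 13.6 CPM in Hif1a KO. All KO libraries were above flox, with a modest rise (0.31 ± 0.10, adjusted p = 0.0226) that was lost without Hif1a flox replicate 3 (0.23, adjusted p = 0.12), KO replicate 2 (0.28, 0.0795) or KO replicate 3 (0.29, 0.0678). Bpgm in the Hif1a Ahr line stood at 12.4, 11.0 and 11.1 CPM in flox and 14.5, 12.1 and 11.4 CPM in KO and in the Ahr line at 9.88, 9.21 and 10.3 CPM in flox and 10.7, 10.0 and 10.0 CPM in KO, overlapping in both. Minpp1 read 43.5, 42.6 and 40.4 CPM in Hif1a flox and 48.1, 46.6 and 46.9 CPM in Hif1a KO, slightly higher in KO but not called (0.16 ± 0.07, adjusted p = 0.0703). It was called there with library totals alone (0.26, adjusted p = 0.0174) or with only the 2 groups in the fit (0.16, 0.0362).

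The enolases differed widely between the abundant and the minor paralogs. Eno1, whose product makes phosphoenolpyruvate, had 5326, 5213 and 5647 CPM in Hif1a flox and 1049, 938 and 865 CPM in Hif1a KO, 5.68-fold lower (-2.50 ± 0.10, adjusted p = 3.68e-12). Eno3, the muscle-type enolase, was at 66.6, 62.9 and 65.4 CPM and 60.0, 51.3 and 61.7 CPM. Its KO values lay below flox by a margin smaller than the test required (-0.17 ± 0.11, adjusted p = 0.267). Eno1 fell 4.60-fold in the Hif1a Ahr line, from 4969, 5236 and 5548 CPM to 1247, 992 and 1188 CPM. Eno3 stood there at 57.6, 67.0 and 86.5 CPM in flox and 59.6, 56.3 and 57.8 CPM in KO (-0.28 ± 0.11, adjusted p = 0.0699). It was called lower without flox replicate 1 (-0.41, adjusted p = 0.00809) and with the replicate block (-0.26, adjusted p = 0.0371). In the Ahr line Eno1 held 4886, 5494 and 5328 CPM in flox and 4937, 5219 and 5232 CPM in KO, and Eno3 66.7, 73.4 and 81.2 CPM in flox and 65.9, 73.6 and 76.8 CPM in KO, each overlapping. Eno2, the neuronal enolase, stayed under 1 CPM in every library, at 0.322, 0.433 and 0.246 CPM in Hif1a flox and 0.173, 0.205 and 0.106 CPM in the KO libraries of that line, 0.234, 0.338 and 0.127 in Hif1a Ahr flox and 0.233, 0.514 and 0.560 in Hif1a Ahr KO. In the Ahr line Eno2 read 0.294, 0.285 and 0.273 CPM in flox and 0.513, 0.329 and 0.226 CPM in KO. At this level it was not called in any line, but without Hif1a Ahr KO replicate 1 it was called higher in that line (1.20, adjusted p = 0.0269). The Eno1 copy Eno1b had a median of 46.3 counts, so its overlap with Eno1 is uncertain.

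Pyruvate kinase and lactate dehydrogenase close the path. Pkm, which makes pyruvate and the second ATP, went from 4267, 4343 and 4676 CPM in Hif1a flox to 1067, 987 and 961 CPM in Hif1a KO, 4.41-fold lower (-2.14 ± 0.08, adjusted p = 3.92e-12). Ldha, whose subunit favours lactate formation, went from 3231, 3140 and 3355 CPM to 821, 782 and 745 CPM, 4.14-fold lower (-2.05 ± 0.09, adjusted p = 9.91e-12). Neither gene had overlapping libraries. In the Hif1a Ahr line Pkm moved from 4384, 4301 and 4401 to 1294, 1043 and 1098 CPM and Ldha from 2894, 3423 and 3455 to 962, 836 and 945 CPM, falls of 3.81-fold and 3.56-fold. Ahr flox and Ahr KO overlapped for both, with 4169, 4520 and 4349 CPM in flox and 4098, 4243 and 4425 CPM in KO for Pkm and 2989, 3398 and 3372 CPM in flox and 3132, 3318 and 3378 CPM in KO for Ldha. Ldhb, which favours the oxidation of lactate in heart, was at 0.133, 0.343 and 0.265 CPM in Hif1a flox and 0.207, 0.239 and 0.124 CPM in Hif1a KO, far under Ldha. Its libraries held 0.539, 0.30 and 0.437 CPM in Hif1a Ahr flox and 0.161, 0.142 and 0.297 CPM in Hif1a Ahr KO, and 0.363, 0.152 and 0.327 CPM in Ahr flox and 0.0917, 0.174 and 0.0940 CPM in Ahr KO. Ldhb was not called in any line, although in the Hif1a Ahr line it passed without flox replicate 2 (-1.27, adjusted p = 0.0419) or KO replicate 3 (-1.48, adjusted p = 0.0324). Pklr, the liver and red cell pyruvate kinase, had no count.

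The 2 lactate carriers changed order. Slc16a3 (MCT4, the exporter of strongly glycolytic cells) had 388, 376 and 408 CPM in Hif1a flox and 29.9, 25.3 and 18.8 CPM in Hif1a KO. It fell 15.8-fold (-3.99 ± 0.18, adjusted p = 2.35e-10), with Aldoc the deepest change of the set. It fell 10.6-fold in the Hif1a Ahr line, from 387, 388 and 365 to 43.7, 24.6 and 38.7 CPM. Slc16a1 (MCT1, a carrier with higher lactate affinity) was at 160.5, 163 and 155 CPM in Hif1a flox and 121, 105 and 141 CPM in Hif1a KO. This was a small fall without overlap (-0.39 ± 0.09, adjusted p = 0.00246). In the Hif1a Ahr line Slc16a1 held 148, 171 and 177 CPM in flox and 163, 189.8 and 176 CPM in KO, which overlapped. Bsg (basigin, the chaperone of both carriers) fell 2.07-fold from 486, 491 and 503 to 248, 236 and 231 CPM in the Hif1a line and 2.07-fold from 514, 486 and 532 to 281, 216 and 243 CPM in the Hif1a Ahr line. The Ahr line held Slc16a3 at 434, 441 and 433 CPM in flox and 438, 452 and 446 CPM in KO, Slc16a1 at 150, 155 and 165 CPM in flox and 172, 174 and 172 CPM in KO, and Bsg at 513, 513 and 517 CPM in flox and 452, 449 and 474 CPM in KO. None of the 3 was called there.

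**Figure D3:**
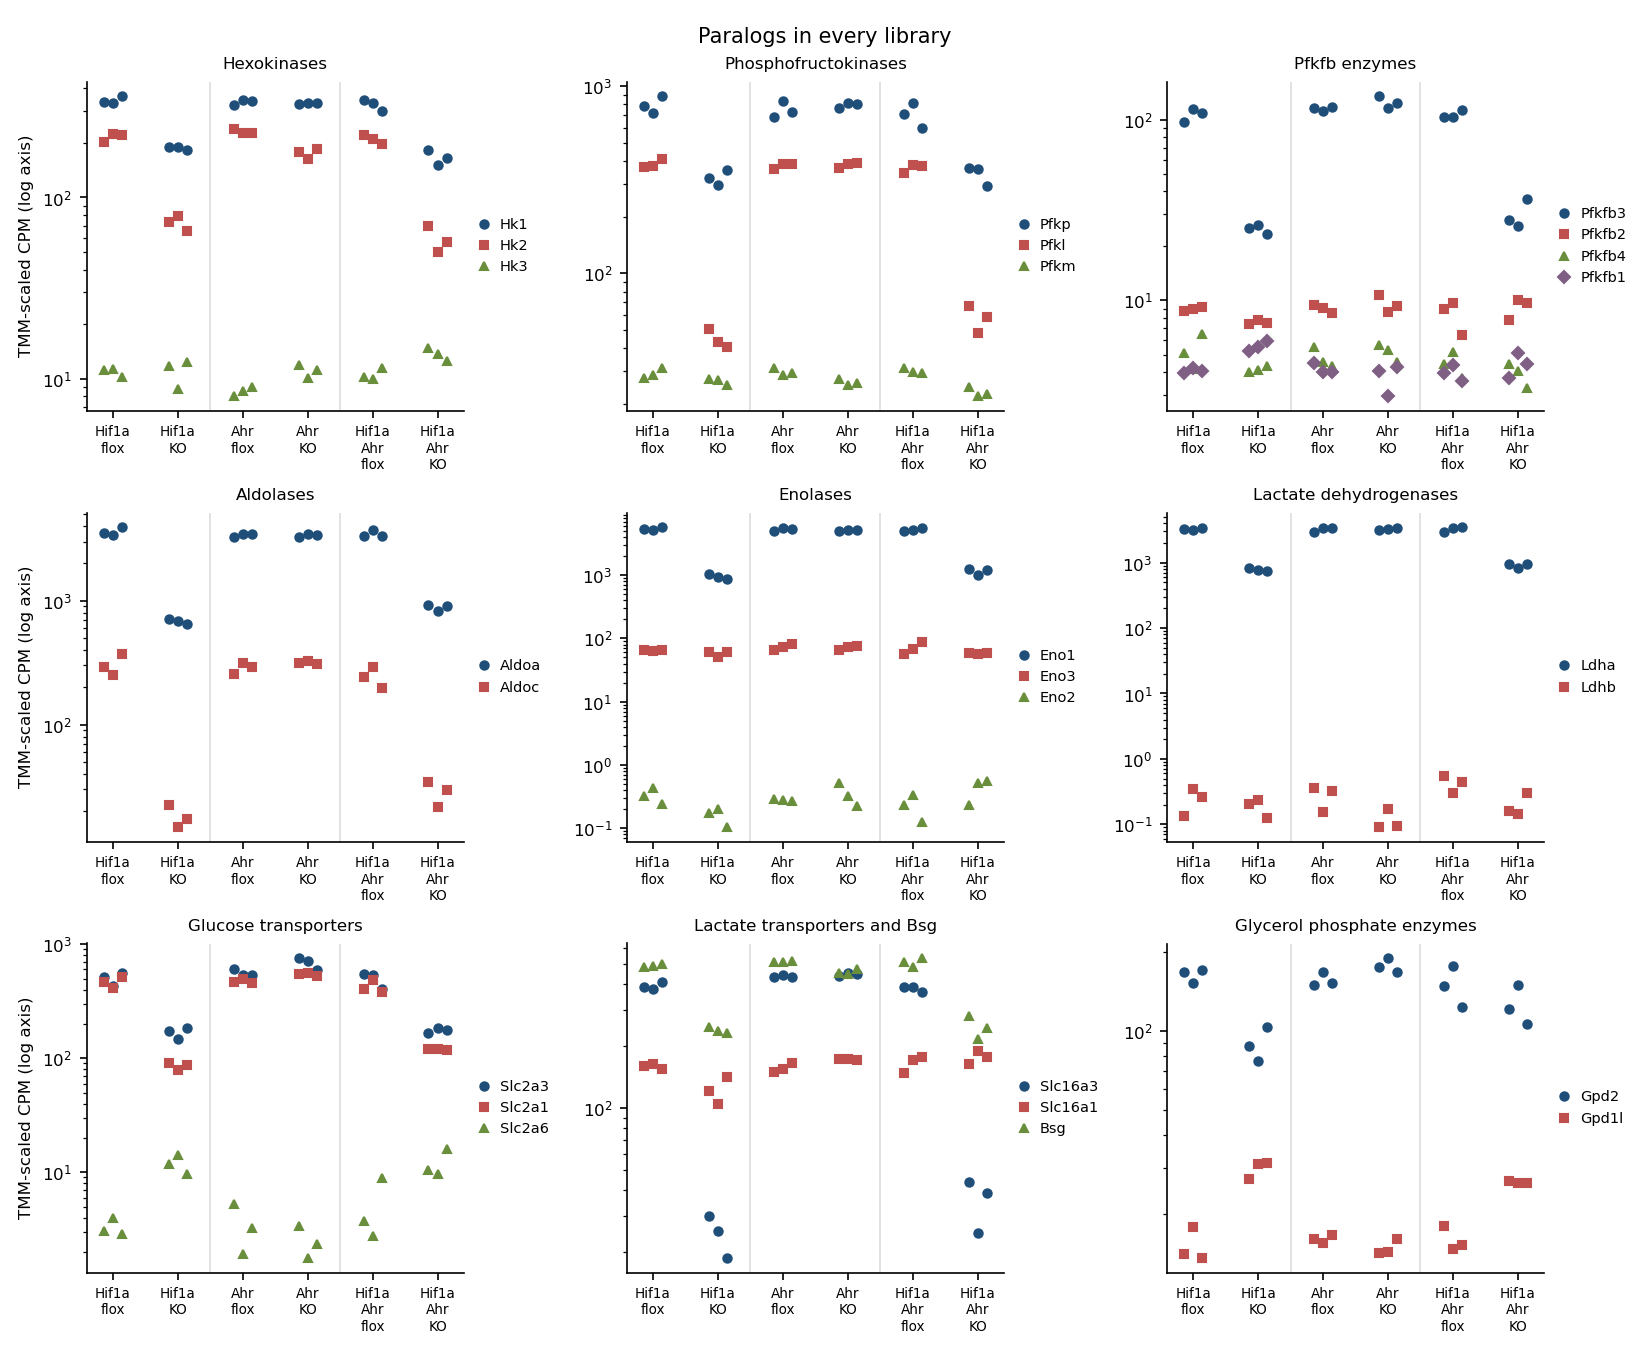
CPM scaled by TMM (log axis) of the paralogs of 9 families in every library of the 6 groups; each point is 1 library and colour and shape mark the gene. Hk2, Pfkl, Pfkfb3, Aldoc, Eno1, Ldha and Slc16a3 drop in the Hif1a KO and Hif1a Ahr KO libraries. Pfkfb2, Pfkfb4 and Eno3 were not called in either line by the test over all 6 groups without the replicate block.

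The balance within 9 pairs of paralogs was then measured inside each library as the log2 ratio of their CPM (each plus 0.5 CPM), so that the scaling of the library largely cancels. All 9 ratios differed between KO and flox over the Hif1a and Hif1a Ahr lines, with the same sign in both lines (exact permutation within lines, 400 permutations, 2-sided p = 0.005 for each, the smallest they can give, and 0.005 after adjustment over the 9 pairs). One line alone cannot go below an exact p of 0.1. The permutations did not keep same-numbered KO and flox libraries together. Ratios of other gene pairs were not tested, so the count of 9 cannot be set against a background. Among all single genes 35.4% were called in Hif1a KO and 31.3% in Hif1a Ahr KO. The direction of the ratio changes was not always a shift toward the minor member. Hk1 gained on Hk2 by 0.78 on the log2 scale, Pfkp on Pfkl by 1.71, Aldoa on Aldoc by 1.36 and Slc2a3 on Slc2a1 by 0.60. In the Hk, Pfk and Aldo pairs the member that gained was the more abundant in flox per kb, while Slc2a1 and Slc2a3 did not differ there beyond their spread. The ratio dropped by 2.14 for Eno1 over Eno3, by 1.91 for Pfkfb3 over Pfkfb2, by 3.56 for Slc16a3 over Slc16a1 and by 1.40 for Gpd2 over Gpd1l. It also dropped by 1.69 for Ldha over Ldhb, where Ldhb was under the added 0.5 CPM in every library but 1 (0.539 CPM), so the ratio follows mostly Ldha and partly Ldhb.

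As shares, Slc16a1 provided 29.0% ± 1.33 (SD, n = 3) of the summed CPM of the lactate carrier pair in Hif1a flox and 83.0% ± 4.57 in Hif1a KO. In the Hif1a Ahr line it went from 30.3% ± 2.48 to 83.1% ± 4.94, and in the Ahr line from 26.4% ± 0.998 to 27.9% ± 0.279. The dominant carrier mRNA thus changed from Slc16a3 to Slc16a1 in all 6 KO libraries of the Hif1a and Hif1a Ahr lines and in no other library. Pfkl fell from 32.6% ± 1.32 to 12.1% ± 1.74 of the Pfkp and Pfkl sum in the Hif1a line, and Hk2 from 38.6% ± 1.48 to 27.9% ± 1.51 of the Hk1 and Hk2 sum. Pfkfb2 went from 7.76% ± 0.479 to 23.4% ± 0.825 of its pair and Gpd1l from 8.58% ± 1.71 to 25.4% ± 3.08. Eno3 remained a minor enolase, at 1.19% ± 0.0446 and 5.75% ± 0.790 of its pair. In Ahr KO, 2 ratios moved in the same direction as in the other KO groups without overlapping flox, Hk1 over Hk2 by 0.36 and Slc16a3 over Slc16a1 by -0.11 on the log2 scale (exact p = 0.1 for each, the smallest that 3 against 3 allows). The Ahr libraries were also apart for Aldoa over Aldoc (-0.16), opposite in sign to the other lines. Among all single genes, 15.3% had every Ahr KO library below flox and 13.7% every one above. No such share was computed for ratios of gene pairs, so these separations cannot be set against a background.

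**Figure D4:**
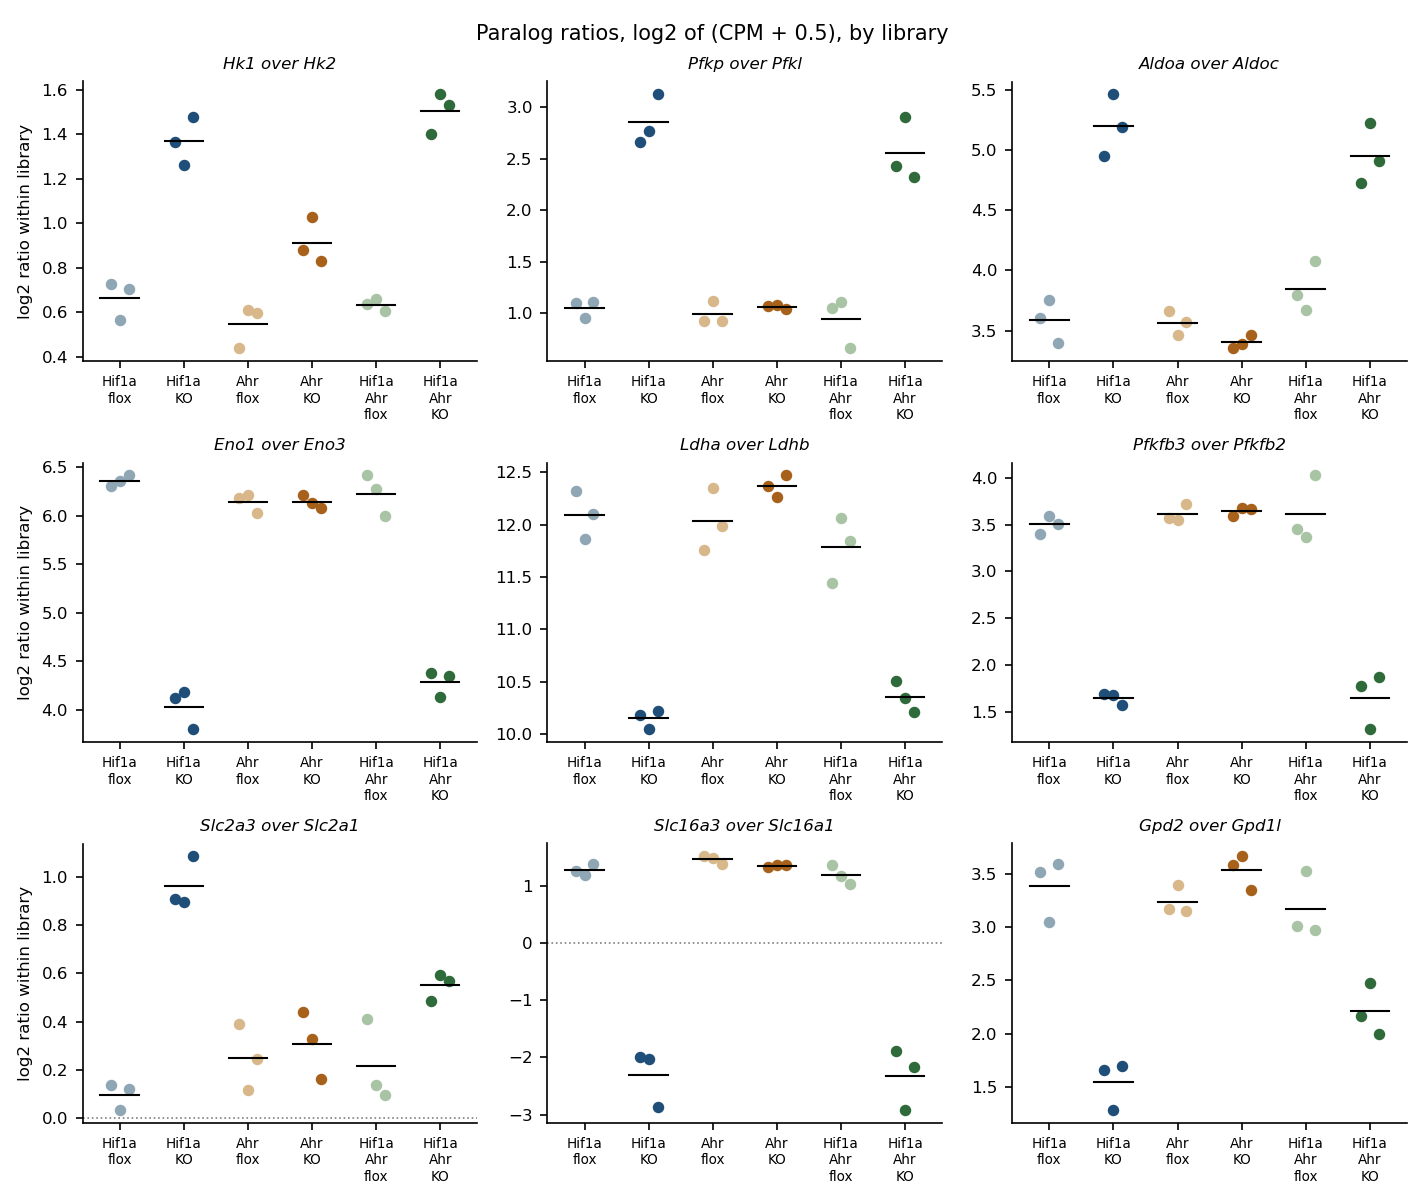
Log2 ratio of CPM (plus 0.5) for 9 paralog pairs in the 6 groups; points are libraries and the bar is the mean (n = 3). In the Hif1a KO and Hif1a Ahr KO libraries the Slc16a3 over Slc16a1 ratio lies below 0, where every other library is above 1, and the Pfkp over Pfkl ratio lies above 2, where every other library is below 1.2.

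The Hif1a Ahr line repeated most of the pattern. Of the 37 genes, 20 were lower in KO (16.5% of all genes) and 4 higher (14.8%; 31.3% either way), with a median log2 change of -1.05 against -0.02 over all genes. At least 2-fold falls were again called for 18 genes (5.37% of all genes). All KO libraries lay below flox in 21 genes (19.7%) and above in 5 (17.6%). Of 21 genes lower in Hif1a KO and 20 lower in Hif1a Ahr KO, 19 were shared. The exceptions were Gpd2 and Slc16a1, called in the Hif1a line alone, and Pfkm, called in the Hif1a Ahr line alone. With the replicate block Gpd2 was called lower in the Hif1a Ahr line too (adjusted p = 0.00371). Slc2a6, Galm and Gpd1l were higher in both, Bpgm and Pfkfb1 in the Hif1a line alone, and Hk3 in the Hif1a Ahr line alone. Scaled by library totals, the genome-wide split in this line was 2234 lower and 2836 higher, against 2756 and 2486.

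Some of the falls were shallower where Ahr was floxed as well. In the test of the difference itself, 6 genes had a higher log2 change in the Hif1a Ahr line than in the Hif1a line and none a lower one, where 4.53% of all genes were called higher, 5.12% lower and 9.65% either way. These were Slc2a1 (0.62 ± 0.12, adjusted p = 0.00664), Aldoa (0.44 ± 0.11, 0.0169), Aldoc (0.97 ± 0.27, 0.037), Gpd2 (0.62 ± 0.19, 0.0453), Slc16a1 (0.48 ± 0.13, 0.0244) and Eno2 (1.94 ± 0.59, 0.0457). For the first 3 the KO level remained well under flox in both lines, so the difference was in the depth of the fall. For Gpd2 and Slc16a1 the fall was called only in the Hif1a line by the fit without the block. With the replicate block Gpd2 was called lower in the Hif1a Ahr line too (-0.25, adjusted p = 0.00371). Eno2 was under 1 CPM throughout. With the replicate block the Aldoc difference was not called (0.97, adjusted p = 0.0639). At an unadjusted p under 0.05 the difference was seen in 12 genes, and DESeq2 called 7. The 12 are not all shallower falls: Pfkm had the lower change in the Hif1a Ahr line (-0.23 ± 0.09), and Hk3 (0.36 ± 0.16) fell in neither line. The shares of all genes at these settings were not computed. The count was 2 without Hif1a Ahr flox replicate 1, Hif1a flox replicate 1 or 3, or Hif1a KO replicate 2, and 3 without Hif1a Ahr flox replicate 3.

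**Figure D5:**
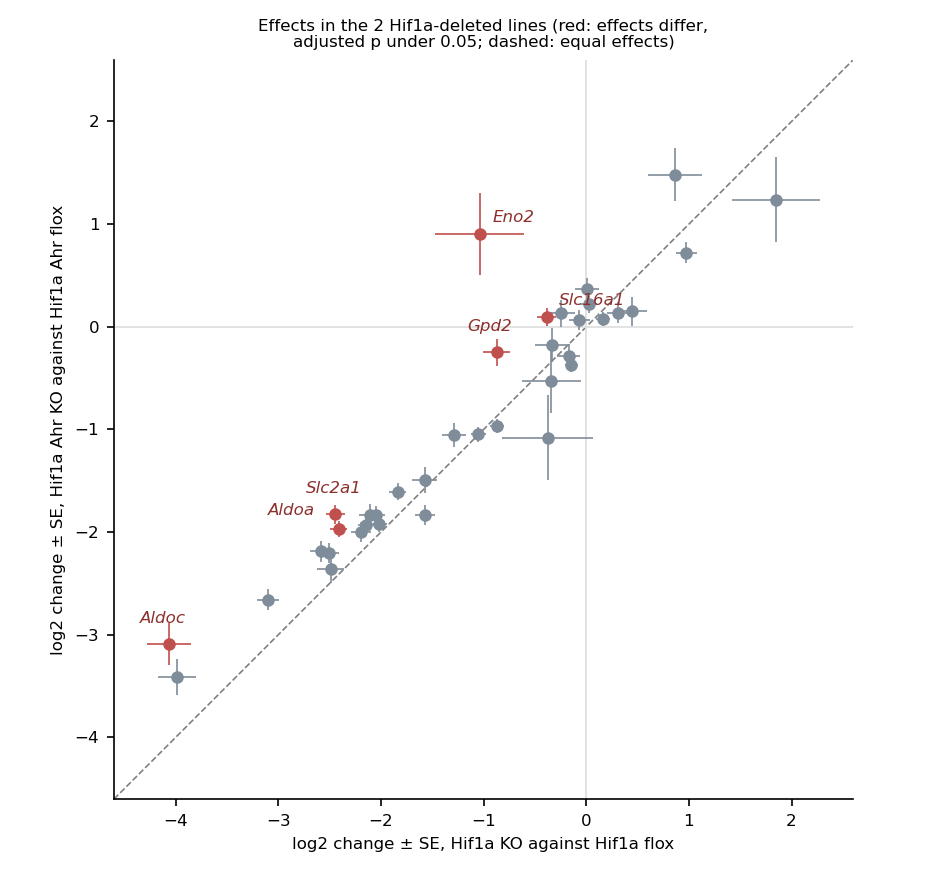
Log2 change in the Hif1a Ahr line against that in the Hif1a line for the 37 tested genes; the dashed diagonal marks equal change, bars are 1 SE on either side, and red points are the 6 genes whose changes differed between the lines. Most genes lie near the diagonal, and the red points lie above it, by 0.44 for Aldoa up to 1.94 for Eno2.

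Set against the Ahr line, the change in Hif1a KO was lower for 21 genes (15.7% of all genes) and higher for 4 (16.6%; 32.4% either way). The 4 were Slc2a6 (2.32), Pfkfb1 (0.60), Gpd1l (1.09) and Minpp1 (0.39, adjusted p = 0.00386). The change in Hif1a Ahr KO was lower than in Ahr KO for 19 genes (7.78%) and higher for 2 (8.6%; 16.4% either way), Gpd1l (0.84) and Minpp1 (0.31). Differences were deepest for Aldoc (-4.20 in the first contrast and -3.23 in the second) and Slc16a3 (-4.02 and -3.44). These 2 contrasts share the Ahr libraries.

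Few of the genes were called in the Ahr line. In Ahr KO 2 of the 37 genes were lower (4.78% of all genes) and none was higher (2.13%; 6.91% either way), with a median log2 change of 0.00. The count of lower genes was 0 when flox replicate 1 or 3, or KO replicate 1 or 2, of this line was left out, and 1 when KO replicate 3 was. No gene of the set was called lower with a fall of at least 2-fold, which 1.3% of all genes were. In 5 genes all KO libraries were below flox (15.3%), and in 5 all were above (13.7%). At an unadjusted p under 0.05, 9 genes differed: Hk2, Minpp1, Pfkm, Pgam1, Ldhb and Bsg on the lower side and Slc2a1, Slc2a3 and Hk3 on the higher side. The share of all genes at that unadjusted threshold was not computed. The genes called by edgeR were Hk2, described above, and Minpp1, which went from 46.8, 41.4 and 44.9 CPM to 37.2, 38.0 and 38.2 CPM. Minpp1 had no overlap (-0.23 ± 0.07, adjusted p = 0.0453), but it was not called with library totals alone (adjusted p = 0.054), without the filter on low counts (0.101), or without flox replicate 1 (0.213) or 3 (0.138) or KO replicate 1 (0.127), 2 (0.13) or 3 (0.101). Minpp1 in the Hif1a Ahr line was at 43.8, 40.9 and 49.2 CPM in flox and 44.2, 47.8 and 48.9 CPM in KO, which overlapped. On the higher side DESeq2 called Hk3, and the fit with the replicate block called Slc2a1, Slc2a3 and Gpd2, as given with each gene.

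The change in the Hif1a Ahr line was also compared with the sum of the changes in the Hif1a and Ahr lines. No gene of the set departed from that sum by edgeR or by DESeq2, and over all genes 0% were called lower and 0.0358% higher. At an unadjusted p under 0.05, 8 genes departed, all upward, with Aldoa at 0.46 ± 0.13 (adjusted p = 0.539) and Slc2a1 at 0.40 ± 0.15 (adjusted p = 0.785) among them. The share of all genes at that unadjusted threshold was not computed, so the 8 cannot be set against a background. Among the 3 flox groups no gene of the set was called different by edgeR, against 0.245% of all genes, and Hk3 and Fbp1 had an unadjusted p under 0.05 (DESeq2 was not run on this contrast).

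Other genes of sugar handling, from lists outside the 41, moved in both directions. Of 21 further isozymes and carriers 8 were expressed enough to test, and 4 fell and 3 rose in Hif1a KO, 2 fell in Ahr KO and 1 fell in Hif1a Ahr KO. Among all genes, 17.8% were lower and 17.6% higher in Hif1a KO, 4.78% lower in Ahr KO and 16.5% lower in Hif1a Ahr KO. Emb (embigin, another chaperone of lactate carriers) rose in Hif1a KO from 124 ± 30.5 to 475 ± 44.7 CPM (1.94 ± 0.27, adjusted p = 1.03e-04), where Bsg fell. It fell in Ahr KO from 147 ± 39.7 to 43.1 ± 10.7 CPM (-1.77 ± 0.28, adjusted p = 0.00183), and went from 186 ± 55.3 to 292 ± 51.0 CPM in the Hif1a Ahr line without a call (0.65 ± 0.27, adjusted p = 0.0807). With the replicate block Emb was called higher in that line as well (0.69, adjusted p = 1.09e-04). Slc2a10 (-1.45) and Slc16a7, which encodes the carrier MCT2 (-2.12), fell in Hif1a KO. Slc2a8 (0.49) and Slc2a9 (0.47) rose there. Slc2a9 was the other gene lower in Ahr KO (-0.46, adjusted p = 0.0185), a call lost without Ahr flox replicate 1 (adjusted p = 0.106) or 3 (0.11) or KO replicate 1 (0.0818) or 3 (0.0505), and with only the 2 groups in the fit (0.0608). In Ahr KO, Slc16a7 was called higher by DESeq2 (0.93, adjusted p = 0.0472) and with the replicate block (0.89, adjusted p = 0.023).

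Among 25 genes on branches off glycolysis, 23 were tested, and 6 fell and 8 rose in Hif1a KO, 2 fell in Ahr KO, and 4 fell and 7 rose in Hif1a Ahr KO. The shares of all genes were 17.8% lower and 17.6% higher, 4.78% lower, and 16.5% lower and 14.8% higher in the same order, so several of these counts lie near the background. Galk1, galactokinase, fell in both lines with floxed Hif1a (-1.88 and -1.58), as did Pcx, pyruvate carboxylase (-0.90 and -0.91). Sord, sorbitol dehydrogenase, rose in both (1.03 and 0.97). Galt (-0.47), an enzyme of galactose use, fell in Hif1a KO. Pmm1, a phosphomannomutase, rose in Hif1a KO (0.59) and fell in Ahr KO (-0.53, adjusted p = 0.015) and Hif1a Ahr KO (-0.37, adjusted p = 0.0308). The Ahr KO call was lost without Ahr flox replicate 1 (adjusted p = 0.0749) or Ahr KO replicate 1 (0.0597) or 2 (0.0543). The Hif1a Ahr KO call was lost without flox replicate 3 (-0.18, adjusted p = 0.212) or KO replicate 2 (0.145) or 3 (0.0967), and with library totals alone (0.0733).

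Among 14 regulators of glucose uptake and of glycolytic transcription, all tested, 6 fell and 3 rose in Hif1a KO and 4 fell and 3 rose in Hif1a Ahr KO. The shares of all genes were 17.8% lower and 17.6% higher, and 16.5% lower and 14.8% higher. Hif1a, the floxed gene itself, is on this list and is among the 3 that rose in each of these lines. In Ahr KO none was called by edgeR, while DESeq2 called Arrdc4 higher (0.52, adjusted p = 0.0199). The replicate block called Arrdc4 (0.51, adjusted p = 0.00655) and Bhlhe40 (0.25, adjusted p = 0.0118) higher there. Arrdc4 (-1.73 and -1.62) and Txnip (-0.81 and -1.11), arrestin-domain proteins known to limit glucose uptake, fell in both lines with floxed Hif1a. Bhlhe40, a hypoxia-inducible repressor, fell as well (-0.95 and -0.52). Arnt, the partner of HIF-1α, rose in Hif1a KO (0.44), and Mlx, the partner of the glucose-responsive MondoA, fell slightly (-0.27, adjusted p = 4.84e-04).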

How the data were processed

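Poly(A) RNA of 18 libraries was sequenced on the DNBSEQ platform with a strand-specific kit, per the labels' protocols. Per the submitters' processing notes, the tools named were kallisto 0.4.6, Trim Galore 0.6.4 and edgeR 3.17 (genome build GRCm39), and the order and role of each tool is not given in the sources used here. The authors deposited estimated counts per Ensembl gene for each library, which need not be whole, and log2 CPM values. The deposited log2 CPM were recomputed from the estimated counts with a prior count of 2 (largest difference 7.1e-15) and were not used further.

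Gene symbols came from a table of identifiers. It gave a symbol to 52029 of the 56953 identifiers, and identifiers without one held 0.315% of the counts. An additional identifier with the symbol Aldoa held 0.0695% of that pair's counts and was left out. Counts were rounded to whole numbers, scaled by TMM (factors 0.941 to 1.06) and tested with edgeR 4.0.16 in R 4.3.3. The quasi-likelihood F test (robust, 2-sided) had 1 mean per group over all 18 libraries, giving 12 residual degrees of freedom and a common biological coefficient of variation of 0.117. The filter filterByExpr (minimum count 10) kept 16743 genes, and p-values were adjusted over these by Benjamini-Hochberg and called under 0.05. The SE of a log2 change is its size over the square root of F. CPM means counts per 1000000 of the TMM-scaled library. The alternatives were other scalings, no filter, DESeq2 1.42.0, the compared groups alone, the replicate number as a block and leaving out each library. The test was checked on simulated counts. These had far fewer changed genes than were called in Hif1a KO, and no deviation shared by replicate number. How the test behaves with as many changes as in Hif1a KO was not checked. Lengths per kb came from the longest coding transcript in GENCODE M21, and promoters from RefSeq.

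Libraries held 54420649 to 55732940 counts, and 3 counts, the most that a count of 0 allows, equal 0.0551 CPM. This covers counting error only. Libraries are labelled biological replicates. Same-numbered KO and flox libraries deviated together in the Hif1a line (correlations 0.315, 0.53 and 0.296 over 9986 genes) and the Ahr line (0.363, 0.333 and 0.534), so blocked values are given there where a call changed. In the Hif1a Ahr line they were 0.067, 0.448 and 0.27. The highest correlations with other numbers there were 0.088, -0.088 and 0.031, so replicates 2 and 3 deviated together and replicate 1 did not. No batch, date or lane is given by the labels.

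Every gene of the set is accounted for. Values in every library are given for the most abundant gene of each step, for paralogs of at least 1 CPM, and for genes that rose or were not called where most fell. From the other lists at most 6 genes each were named, called ones first by adjusted p. Some results for genes of those lists are not reported here. The members and lists were chosen with earlier results of these data known.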

Additional observations from a re-analysis of the deposited data

Results flagged for a closer look

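For 6 genes the KO change differed between the Hif1a Ahr line and the Hif1a line by the edgeR test of the difference, and all 6 were higher in the Hif1a Ahr line. The difference in log2 change was 0.62 for Slc2a1, 0.44 for Aldoa, 0.97 for Aldoc, 0.62 for Gpd2, 1.94 for Eno2 and 0.48 for Slc16a1. Slc2a1 was called in all 18 alternatives, those that left out a library included, with values of 0.55 to 0.73, and Aldoa in 17 of 18 (0.38 to 0.49). Slc16a1 was called in 13 of the 18 (0.38 to 0.60), Gpd2 in 10 (0.48 to 0.76) and Aldoc in 8 (0.81 to 1.15), and with the replicate block the Aldoc call was lost (adjusted p = 0.0639). Eno2, under 1 CPM in every library, was called in 6 of 17 alternatives with a p-value (1.65 to 2.30). The cause of the differences was not tested.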

How the results depend on the processing

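Of 1442 recomputed log2 changes of single genes over all alternatives, 1393 kept their direction and their side of the threshold, 28 lost a call, 21 gained one and none reversed. The counts of lower genes in the Hif1a and Hif1a Ahr lines stayed within 1.5 times under every alternative. In the Ahr line the count of lower genes was 1 with library totals alone and 1 without the filter, and 0 to 2 when libraries were left out. The count of higher genes there was 3 with the replicate block, and 1 with only the 2 groups compared and 1 with DESeq2 (Hk3 in both). Left-out libraries gave 2 to 5 higher genes in Hif1a KO, 3 to 6 in Hif1a Ahr KO, and 2 to 8 genes that differed between the Hif1a Ahr and Hif1a lines. In the Hif1a Ahr line, same-numbered libraries deviated together for replicates 2 and 3 but not for replicate 1. With the replicate block, Tigar (0.22, adjusted p = 0.046), Gpd2 (-0.25, 0.00371) and Eno3 (-0.26, 0.0371) were also called there. Beside these and the Ahr calls given with their genes, the block changed no other call of the set in the 3 KO comparisons. Without mitochondrially encoded genes in the total, the share of the 41 genes was 3.53% in Hif1a Ahr flox, 3.64% in Ahr flox and 3.52% in Ahr KO. Paralog ratios tested in each line alone could not pass, at an exact p of 0.1. In the order of the pairs Hk1 over Hk2, Pfkp over Pfkl, Aldoa over Aldoc, Eno1 over Eno3, Ldha over Ldhb, Pfkfb3 over Pfkfb2, Slc2a3 over Slc2a1, Slc16a3 over Slc16a1 and Gpd2 over Gpd1l, the Hif1a line gave 0.70, 1.81, 1.62, -2.33, -1.94, -1.85, 0.87, -3.59 and -1.84. The Hif1a Ahr line gave 0.87, 1.61, 1.10, -1.95, -1.43, -1.96, 0.33, -3.53 and -0.96. The cause of these changes was not tested. The alternatives for genes outside the set were chosen after seeing the data. Depth limits what can be said of Eno2, Ldhb, Fbp1, Galm and the untested genes.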
